A study of Arabidopsis thaliana with 24 samples.

Results

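Of the 32791 loci on the arrays of this study, 8 were chosen by locus identifier as known regulators of organ and cell size in Arabidopsis thaliana. They are the ARGOS family genes ARGOS (AT3G59900), ARL (AT2G44080) and OSR1 (AT2G41230), the LONGIFOLIA genes LNG1 (AT5G15580), LNG2 (AT3G02170), LNG3 (AT1G74160) and LNG4 (AT1G18620), and BREVIS RADIX, BRX (AT1G31880). All 8 were found on both chips, with 1 splice form each, and none was lost to a filter on low values, since none was applied. The rule named loci and used no measured value, but the loci were chosen with earlier results of these data known. From these same arrays the authors had listed ARGOS, ARL, LNG1 and LNG2 as auxin-induced and BRX as auxin-responsive.

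The ARGOS proteins are small membrane proteins that enlarge leaves and other organs when overexpressed. ARGOS was named for its induction by auxin and prolongs cell proliferation, ARL acts mainly on cell expansion and responds to brassinosteroid, and OSR1 affects both processes. Family members also lower the sensitivity of the plant to ethylene. The LONGIFOLIA proteins promote cell elongation along the long axis of leaves and belong to the TRM proteins, some of which recruit TON1 and a PP2A phosphatase complex to cortical microtubules. BRX is a plasma membrane-associated protein of the developing phloem that limits auxin efflux, promotes root growth and is itself auxin-responsive in roots.

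The hypocotyl, the embryonic stem, was dissected from 5-day-old seedlings after treatment with 5 µM picloram, a synthetic auxin, or with the solvent DMSO (control). Experiment “a” comprised wild type (Col-0) after 2 h of picloram, 2 h of control, 30 min of picloram and 30 min of control. Experiment “b” comprised afb5-5 after picloram, afb5-5 after control, wild type after picloram and wild type after control, all for 2 h. The afb5-5 line is a mutant of the auxin receptor gene AFB5 in the same ecotype and is labelled as resistant to picloram. Each group held 3 replicates, each of which pooled many hypocotyls collected over several days, so that the replicates describe pools and not single plants. In “a” the RNA was amplified, every picloram sample carried Cy3 and every control Cy5, which means that a dye effect and the treatment cannot be told apart in it. In “b” all samples carried Cy3 and the RNA was not amplified.

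Values below are log2 signals, and changes are differences of group means on that scale with their standard errors. A change was called when its adjusted p (limma, Benjamini-Hochberg over all transcripts of the chip) lay under 0.05. The deposited medians of the arrays differed up to 1.72-fold in “a”, which was therefore quantile normalized, and up to 1.03-fold in “b”. The lowest correlation between arrays was 0.96 in “a” and 0.95 in “b”. As known auxin targets, GH3.3, which conjugates auxin to amino acids, rose by 3.01 at 2 h in “a” and by 2.88 in wild type in “b”, and the auxin response repressor gene IAA19 by 1.79 and 2.28. Neither gene was called at 30 min (changes of 1.30 to 2.62) or in afb5-5 (0.39 to 1.41). The response of afb5-5 minus that of wild type, -1.89 to -1.48, was not called for either. Under picloram both were called lower in afb5-5 than in wild type. The wild-type control replicate 3 at 30 min stood apart, with SDs in that group of 1.66 for GH3.3 and 0.84 for IAA19, and the results at 30 min that it moved are given with and without it. The level of AFB5 was 13.09 ± 0.14 in afb5-5 and 13.44 ± 0.10 in wild type on control (SD, n = 3), which was not called, so this signal does not check the genotype. KNAT1, a marker of stem tissue, ranked at the 97.9th percentile of the chip in “a” and the 98.3rd in “b”, whereas the shoot apex markers WUS, CLV3 and STM lay between the 9.8th and the 40.0th. Because whole hypocotyls were pooled, fewer cells of a type and less RNA per cell cannot be told apart.

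On the TAIR10.1 annotation from RefSeq, ARGOS lies at chr3:22129505-22130472, ARL at chr2:18236789-18238173 and OSR1 at chr2:17194748-17195697. LNG1 lies at chr5:5068237-5072492, LNG2 at chr3:396012-399960, LNG3 at chr1:27885911-27891436 and LNG4 at chr1:6409655-6414569. BRX lies at chr1:11445490-11450232. All of these spans are whole genes, and the position of the probes within them was not analysed here. OSR1, LNG1 and LNG2 each share part of their span with another annotated locus (AT2G41231, AT5G15581 and AT3G02160), so their signals carry that uncertainty. By its mean signal OSR1 stood at the 64.8th percentile of the chip in “a” but at the 35.5th in “b”, and BRX at the 48.3rd and the 38.6th. LNG1, in contrast, stood at the 98.0th percentile in “b”. These are ranks of probe signal and do not compare transcript abundance between genes.

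After 2 h of picloram, all 8 genes were higher than control in experiment “a”, by 1.04 to 2.81, and all 8 were called. Of all 30361 transcripts of that chip, 5.53% were called higher and 11.4% in either direction. Because the genes were chosen with earlier results of these data known, setting these shares side by side is a description and not a test. The median change of the 8 was 1.74, against -0.01 over all transcripts, and in all 8 every picloram sample lay above every control, as in 17.3% of transcripts. For wild type in experiment “b”, 3 of the 8 genes were called, all higher (ARGOS, ARL and LNG1), where 1.71% of 37118 transcripts were called higher, and the median change of the 8 was 0.63, against -0.03 over all transcripts. In 6 of the 8 the groups there were apart with picloram higher, as in 10.8% of transcripts. After 30 min of picloram 0 of 8 passed the limma threshold, with 0.155% of transcripts called higher, and 3 had an unadjusted p under 0.05 (8.08% of transcripts). In afb5-5, 0 of 8 were called by limma, as was 0% of the chip, and 3 had an unadjusted p under 0.05 (1.03% of transcripts).

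**Figure D1:**
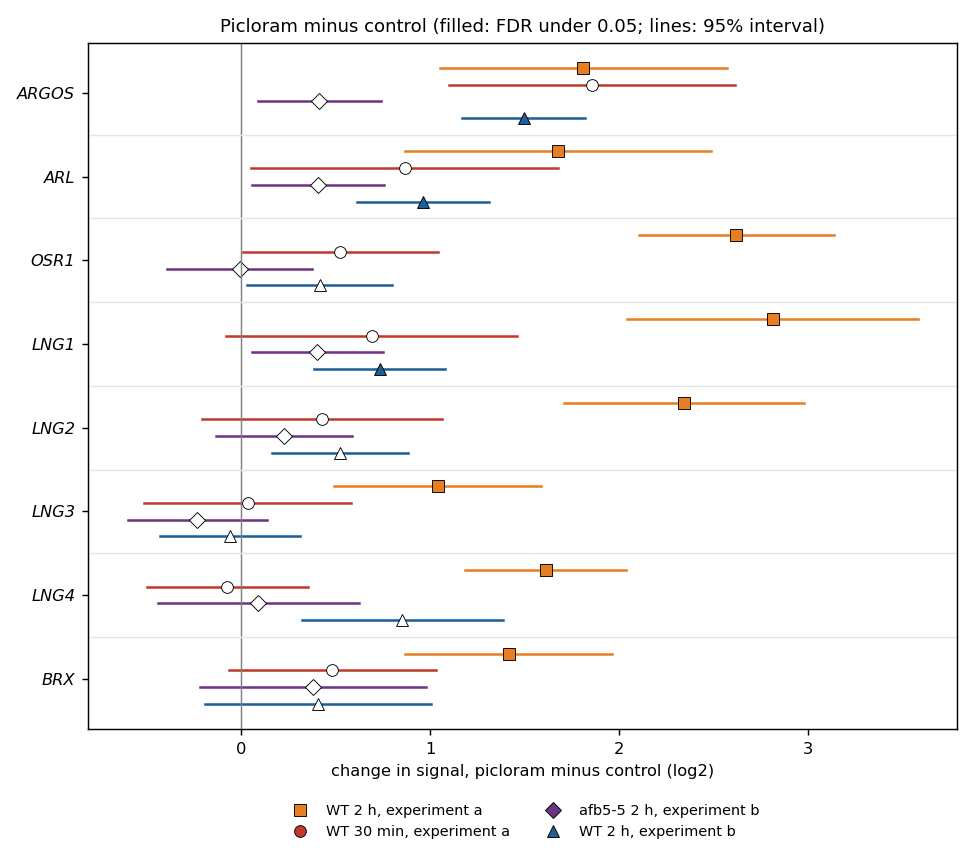
Change in signal (log2, picloram minus control) of the 8 genes in wild type at 2 h and 30 min in experiment a, and in afb5-5 and wild type at 2 h in experiment b, with 95% intervals and filled symbols for an adjusted p under 0.05. All 8 symbols of experiment a at 2 h are filled and lie between 1.04 and 2.81, and in wild type in experiment b those of ARGOS, ARL and LNG1 are filled.

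ARGOS, the auxin-inducible gene that names the family, rose at 2 h in both experiments. In “a” it measured 15.31, 15.39 and 15.17 after 2 h of picloram, against 13.44, 13.59 and 13.40 on control. Its signal in wild type in “b” was 11.47, 11.78 and 11.68 after picloram, against 10.09, 10.39 and 9.98 on control. The groups did not overlap in either experiment, and the rise was 1.81 ± 0.34 in “a” (adjusted p = 0.00822, 3.51-fold) and 1.49 ± 0.15 in “b” (adjusted p = 0.000378, 2.82-fold). Both calls held under every other normalization, filter and fit tried and with each array left out in turn. The deposited intensities of ARGOS under picloram in “a”, 27366 to 44369, can be set beside array maxima of 63075 to 65326.

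ARGOS also stood high after 30 min. It measured 14.75, 15.16 and 15.24 after picloram, against 13.73, 13.69 and 12.17 on control, so every picloram sample lay above every control, as in 5.81% of transcripts. The change of 1.86 ± 0.34 was close in size to that at 2 h but missed the threshold (adjusted p = 0.0755), and only 0.155% of transcripts had a larger one. Control replicate 3 was the low sample, and without it the change was 1.36 and was called (adjusted p = 0.0214). That was the only 1 of 13 alternatives with a call, and the adjusted p reached 0.427 in the others. With the replicate number as a block within each time point it was 0.0604, and with the block over all samples 0.109. The order of the group means in “a” was picloram at 2 h (15.29 ± 0.11), picloram at 30 min (15.05 ± 0.27), control at 2 h (13.48 ± 0.10) and control at 30 min (13.19 ± 0.89; SD, n = 3), in which neighbours of the same treatment overlapped.

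ARL, the relative of ARGOS that promotes cell expansion, rose at 2 h in both experiments as well. It measured 14.71, 14.60 and 14.59 in “a” after picloram, against 13.09, 12.92 and 12.86 on control. Its signal in wild type in “b” was 11.03, 11.18 and 11.00 after picloram, against 10.09, 10.43 and 9.80 on control. The groups were apart in both, by 1.68 ± 0.37 in “a” (adjusted p = 0.0154, 3.20-fold) and 0.96 ± 0.16 in “b” (adjusted p = 0.0079, 1.95-fold). In “a” the call was lost without control replicate 2, picloram replicate 1 or picloram replicate 2 (adjusted p = 0.0529 to 0.0589). At 30 min the change was 0.87 ± 0.37 with all samples, the groups overlapped, and without control replicate 3 it was 0.32 (adjusted p = 0.571 and 0.841).

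OSR1, which acts on both proliferation and expansion, rose in “a” and was not called in “b”. In “a” at 2 h it measured 13.88, 13.83 and 13.81 after picloram, against 11.30, 11.14 and 11.22 on control, with a smaller SD in each group than any other member. This was a rise of 2.62 ± 0.23 (adjusted p = 0.000268, 6.14-fold), with a 95% interval of 2.10 to 3.13. In wild type in “b”, where its signal lay between the lower quartile and the median of the arrays, it measured 8.04, 8.36 and 8.03 after picloram, against 7.87, 7.68 and 7.63 on control. The groups did not overlap, but the change of 0.42 ± 0.17 was not called (adjusted p = 0.32), and its interval of 0.03 to 0.80 lies below that of “a”. The difference between the experiments was not tested. Chip, hybridization facility, dye, RNA extraction, RNA amplification and pool size, among others, cannot be told apart in it. At 30 min OSR1 differed by 0.53 ± 0.23 (adjusted p = 0.607), and by 0.22 without control replicate 3.

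**Figure D2:**
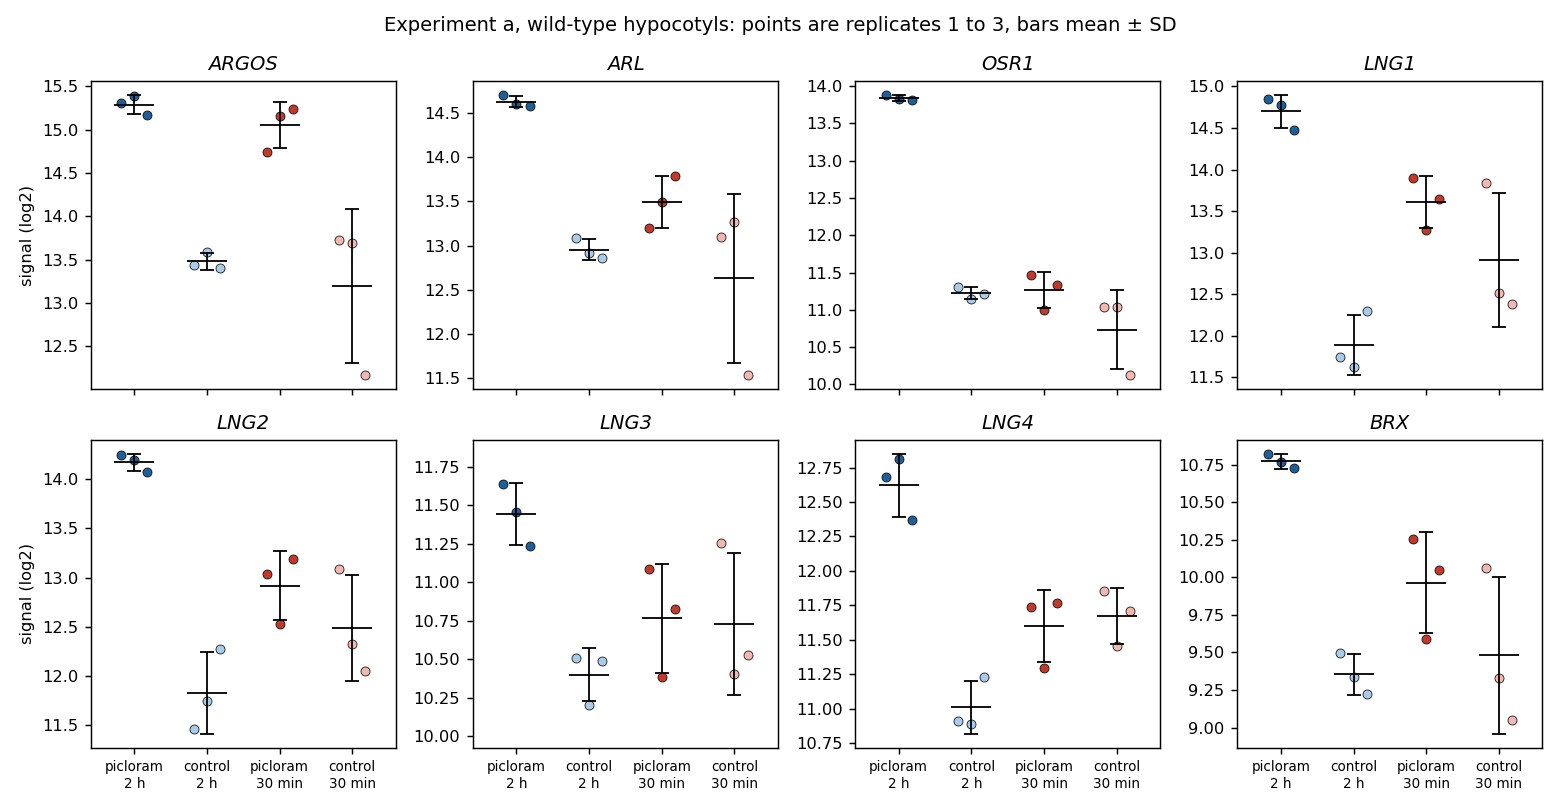
Signal (log2) of the 8 genes in each sample of experiment a, by group from left to right picloram at 2 h, control at 2 h, picloram at 30 min and control at 30 min, with bars for the mean ± SD and an axis of its own for each gene. At 2 h no control sample reaches a picloram sample in any of the 8 panels, and replicate 3 of the 30 min control is the low point of ARGOS, ARL, OSR1 and BRX.

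LNG1 had the largest rise of the 8 genes in “a” at 2 h. It measured 14.85, 14.78 and 14.48 after picloram, against 11.74, 11.62 and 12.30 on control, a rise of 2.81 ± 0.35 (adjusted p = 0.00109, 7.02-fold) that 0.115% of transcripts exceeded. Its signal in wild type in “b” was 13.83, 13.60 and 13.93 after picloram, against 13.08, 13.09 and 13.00 on control. That rise of 0.73 ± 0.16 was called with all samples (adjusted p = 0.0363, 1.66-fold), but leaving out any 1 of the 6 arrays ended the call (adjusted p = 0.0568 to 0.193). Its 95% interval of 0.39 to 1.08 lies below that of “a”, 2.04 to 3.58.

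LNG2, which acts redundantly with LNG1 in leaf elongation, was likewise higher in “a”. In “a” at 2 h it measured 14.25, 14.19 and 14.07 after picloram, against 11.46, 11.74 and 12.28 on control, a rise of 2.34 ± 0.29 (adjusted p = 0.00107, 5.07-fold). In wild type in “b” it measured 13.00, 12.99 and 13.07 after picloram, against 12.39, 12.78 and 12.33 on control. Those groups did not overlap, and the change of 0.52 ± 0.16 was not called (adjusted p = 0.169).

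LNG4 and LNG3, the other family members, rose in “a” and were not called in “b”. LNG4 measured 12.68, 12.81 and 12.37 in “a” after 2 h of picloram, against 10.91, 10.89 and 11.23 on control, a rise of 1.61 ± 0.19 (adjusted p = 0.000921, 3.06-fold). Its signal in wild type in “b” was 10.16, 10.35 and 10.39 after picloram, against 8.79, 9.89 and 9.66 on control, and the change of 0.85 ± 0.24 was not called (adjusted p = 0.121) although the groups were apart. Control replicate 1 was the low sample there, and without it the change was 0.53. LNG3 measured 11.64, 11.45 and 11.24 in “a” after 2 h of picloram, against 10.51, 10.21 and 10.49 on control, a rise of 1.04 ± 0.25 (adjusted p = 0.022, 2.06-fold). The LNG3 call was lost on the values as deposited (adjusted p = 0.127) and without control replicate 1, control replicate 2, picloram replicate 1 or picloram replicate 2 (0.0592 to 0.0896). In wild type in “b” LNG3 measured 10.71, 11.14 and 10.88 after picloram, against 10.87, 11.16 and 10.88 on control. Those groups overlapped, with a change of -0.06 ± 0.17 and an interval of -0.43 to 0.31.

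Same-numbered wild-type samples of “b” deviated together, which makes a comparison within replicate numbers possible. Fitted to these 6 samples with the replicate number as a block, 5 of the 8 genes were called higher in “b”, with LNG2 (adjusted p = 0.0453) and LNG4 (adjusted p = 0.025) in addition to ARGOS, ARL and LNG1, but the share of all transcripts called higher was then 7.31%. Fitted to the same samples without the block, 1 was called, ARGOS, where 0.983% of transcripts were called higher. With the block over all 12 samples of “b” 4 were called, with LNG4 (adjusted p = 0.0478) in addition to the same 3, where 2.3% of transcripts were called higher. That fit assumes that same-numbered samples of all groups deviated together. Between wild type and afb5-5 after picloram, however, the deviations had r = -0.44, -0.70 and 0.20.

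BRX rose at 2 h in “a” and was not called in “b”. It measured 10.82, 10.77 and 10.72 in “a” after picloram, against 9.50, 9.34 and 9.22 on control, a rise of 1.42 ± 0.25 (adjusted p = 0.00571, 2.67-fold). In wild type in “b”, where its signal lay between the lower quartile and the median of the arrays, it measured 8.03, 8.81 and 8.62 after picloram, against 7.84, 8.42 and 7.97 on control. The groups overlapped, the change was 0.41 ± 0.27 (adjusted p = 0.506), and its interval of -0.19 to 1.01 reaches into that of “a”, 0.87 to 1.96. Without picloram replicate 1 the change in “b” was 0.64, and without picloram replicate 2 it was 0.25.

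Of the 4 root markers, the root hair genes EXPA7 and COBL9 had higher means after 2 h of picloram in “a”, whereas the root apex genes WOX5 and PLT1 had lower means. EXPA7, an expansin of root hairs, measured 10.61 ± 1.36 after picloram and 7.94 ± 1.38 on control (SD, n = 3; adjusted p = 0.0502), and COBL9 differed by 1.24 (adjusted p = 0.205). WOX5 differed by -0.47, with every picloram sample below every control, and PLT1 by -0.19. None of the 4 was called and none was at 0, and their summed linear signal was 1247 to 4053 after picloram and 864 to 1746 on control. The sum in wild type in “b” was 1527 to 1701 after picloram and 1640 to 2577 on control. Their part in the results was not tested.

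After 30 min in “a” the LONGIFOLIA genes and BRX overlapped between picloram and control. LNG1 measured 13.90, 13.28 and 13.65 after picloram, against 13.84, 12.52 and 12.38 on control, and LNG2 measured 13.04, 12.53 and 13.19, against 13.09, 12.33 and 12.05. Control replicate 1 was the high control in both genes, and the changes were 0.69 ± 0.35 and 0.43 ± 0.29 (adjusted p = 0.671 and 0.795). Both moved with single controls, and LNG1 changed by 1.16 without control replicate 1 and by 0.43 without control replicate 3, and LNG2 by 0.73 and 0.21. BRX measured 10.25, 9.59 and 10.05 after picloram, against 10.06, 9.33 and 9.05 on control, a change of 0.48 ± 0.25 (adjusted p = 0.68), which was 0.77 without control replicate 1, again the high control, and 0.27 without control replicate 3. LNG3 changed by 0.04 ± 0.25, with an interval of -0.51 to 0.58.

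The difference between the responses at 2 h and at 30 min was tested in “a”. The response at 2 h minus the response at 30 min was called for 2 of the 8 genes, OSR1 (2.09 ± 0.33) and LNG4 (1.68 ± 0.27), both higher with an adjusted p of 0.0277, where 0.415% of transcripts were called higher. LNG4 differed by -0.07 ± 0.19 between picloram and control at 30 min, with samples of 11.30 to 11.77 after picloram and 11.45 to 11.85 on control. LNG1 (2.12 ± 0.49, adjusted p = 0.0711) and LNG2 (1.91 ± 0.41, adjusted p = 0.0568) had differences of similar size that were not called, and those of LNG3, BRX and ARL were 1.01, 0.93 and 0.81. ARGOS had a difference of -0.05 ± 0.49, with an interval of -1.12 to 1.02, which turned to 0.13 with the median of each array subtracted and to 0.17 on the values as deposited.

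These counts depended on the fit. With the replicate number as a block within each time point, the pairing that the deviations of the samples showed in “a”, 4 of 8 differences were called, with LNG1 (adjusted p = 0.0271) and LNG2 (adjusted p = 0.0321) added, where 2.29% of transcripts were called higher. On the values as deposited 0 of 8 were called by limma, where 0.0494% of transcripts were called higher. Without 30 min control replicate 3, OSR1 differed by 2.41 and was called, LNG4 by 1.66 and was not (adjusted p = 0.0518), ARGOS differed by 0.47, and ARL by 1.37 (adjusted p = 0.0561). The ARL difference was 0.49 without 30 min control replicate 2. Each of 8 arrays, left out in turn, ended the call of OSR1, and each of 8 that of LNG4.

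**Figure D3:**
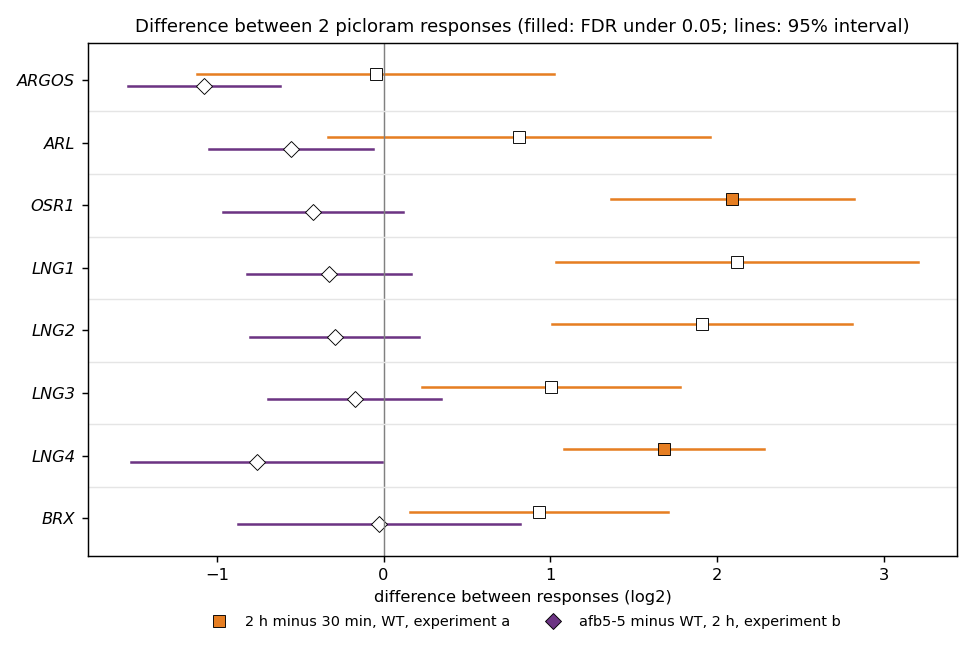
Difference between 2 picloram responses (log2) of the 8 genes, as 2 h minus 30 min in wild type in experiment a and as afb5-5 minus wild type in experiment b, with 95% intervals and filled symbols for an adjusted p under 0.05. OSR1 and LNG4 are filled for time, and ARGOS lies lowest for genotype, at -1.08.

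On control medium alone, 0 of 8 genes passed the limma threshold between 2 h and 30 min, with 0.356% of transcripts called, and 3 had an unadjusted p under 0.05 (16.5% of transcripts). LNG1 measured 11.74, 11.62 and 12.30 at 2 h, against 13.84, 12.52 and 12.38 at 30 min, a change of -1.02 ± 0.35 (adjusted p = 0.192) that was -0.56 without 30 min control replicate 1, the high sample. LNG4 measured 10.91, 10.89 and 11.23 at 2 h, against 11.85, 11.45 and 11.71 at 30 min, a change of -0.66 ± 0.19 (adjusted p = 0.151). In both genes every control sample at 2 h lay below every control sample at 30 min, as in 12.6% of transcripts. After picloram, LNG4 averaged 12.62 ± 0.23 at 2 h and 11.60 ± 0.26 at 30 min (SD, n = 3), so that picloram and control levels moved apart between the times. OSR1 was apart in the other direction by 0.49 ± 0.23, as in 11.2% of transcripts, but by 0.18 without 30 min control replicate 3, and the remaining 5 genes overlapped between the times.

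In afb5-5, no change of the 8 genes after picloram was called. ARGOS measured 10.65, 10.69 and 10.80 after picloram, against 10.36, 10.38 and 10.16 on control, and ARL 11.12, 10.95 and 11.07, against 10.55, 10.66 and 10.69. In both genes all 3 picloram samples lay above all 3 controls, and the changes were 0.42 ± 0.15 and 0.41 ± 0.16 (adjusted p = 1 for both). The share of all transcripts whose groups were apart in that direction was 1.73%. LNG1 measured 12.99, 13.29 and 13.17 after picloram, against 12.50, 13.02 and 12.70 on control, a change of 0.41 ± 0.16 with overlapping groups.

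The other 5 genes overlapped in afb5-5 as well. LNG2 measured 12.78, 12.72 and 12.81 after picloram, against 12.25, 12.79 and 12.59 on control, a change of 0.23 ± 0.16. LNG4 measured 9.89, 9.89 and 10.02 after picloram, against 9.61, 9.80 and 10.11 on control, a change of 0.09 ± 0.24. For both, the picloram samples lay within or close to the range of the controls. LNG3, whose change was the lowest of the 8 here, averaged 10.76 ± 0.26 after picloram and 10.99 ± 0.06 on control (SD, n = 3), a change of -0.23 ± 0.17. BRX measured 8.54, 8.34 and 8.02 after picloram, against 7.36, 8.21 and 8.18 on control, a change of 0.38 ± 0.27, with control replicate 1 the low sample, and 0.11 without it. OSR1 averaged 8.01 ± 0.19 after picloram and 8.02 ± 0.28 on control (SD, n = 3), and the interval of its change was -0.39 to 0.38.

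**Figure D4:**
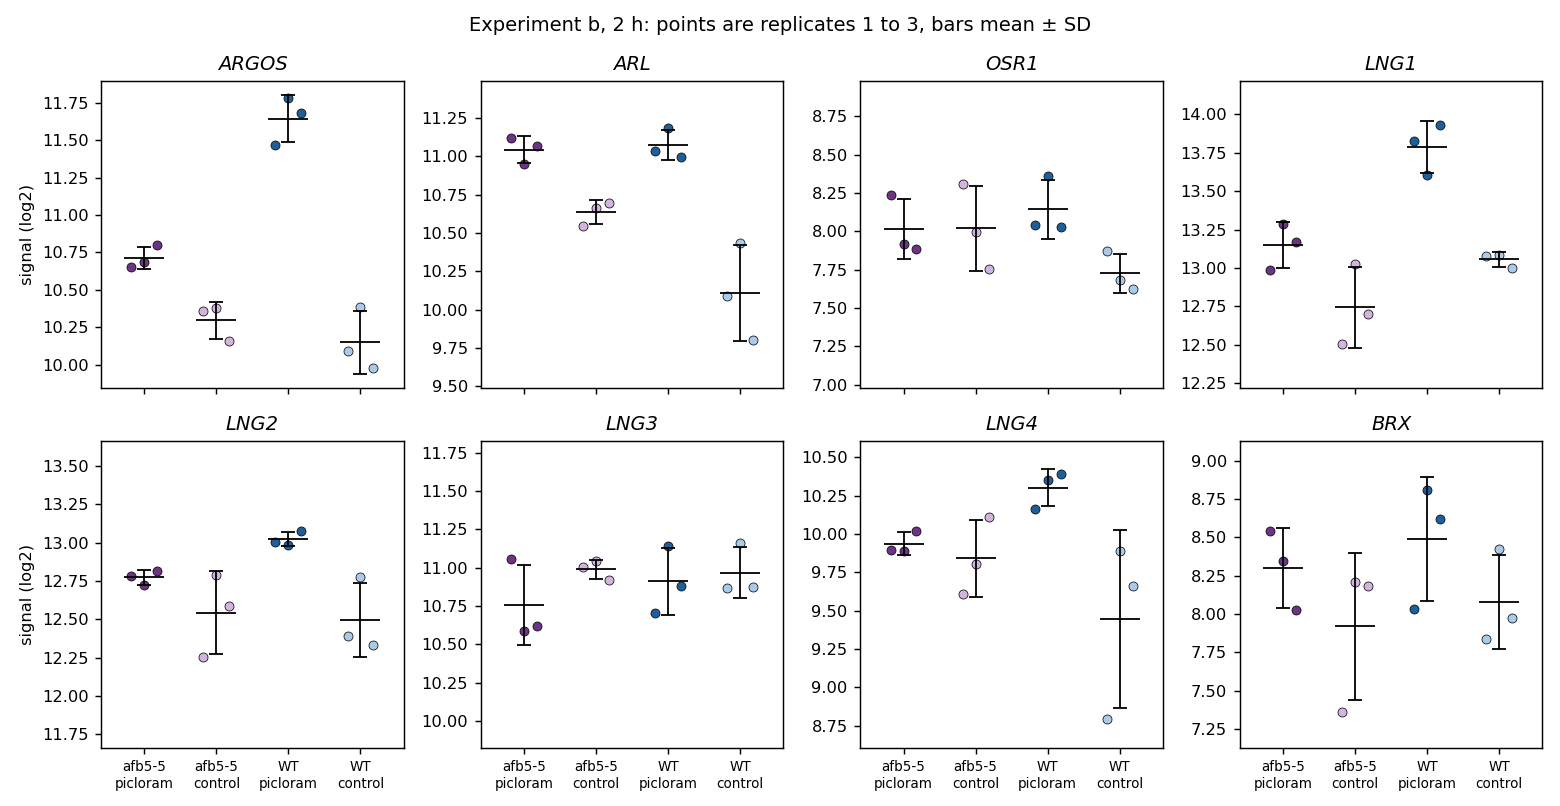
Signal (log2) of the 8 genes in each sample of experiment b, by group from left to right afb5-5 after picloram, afb5-5 on control, wild type after picloram and wild type on control, with bars for the mean ± SD and an axis of its own for each gene. ARGOS in wild type after picloram (11.47 to 11.78) stands above all other samples, whereas ARL reaches about the same level after picloram in both genotypes.

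The response of afb5-5 minus that of wild type was below 0 in all 8 genes, with a median of -0.38 against 0.02 over all transcripts. This difference subtracts the wild-type response, and the genes were chosen with earlier results of these data known. The shared sign is therefore a description and not a test. By limma 0 of 8 passed the threshold, with 0.102% of transcripts called and 3 of the 8 genes at an unadjusted p under 0.05 (4.09% of transcripts). ARGOS had the largest difference, -1.08 ± 0.21 (adjusted p = 0.116), with an interval of -1.54 to -0.62. Across the alternatives its adjusted p ranged from 0.0966 to 0.374. LNG4 differed by -0.76 ± 0.34, ARL by -0.55 ± 0.23, OSR1 by -0.42 ± 0.25 and LNG1 by -0.33 ± 0.23, all with an adjusted p of 1. Without control replicate 1 of wild type the LNG4 difference was -0.43. Leaving out control replicate 1 of afb5-5 gave -0.28 for OSR1, and leaving out its control replicate 2 gave -0.19 for LNG1. Over the 4 groups of “b”, ARGOS had its order of means as wild type after picloram (11.64 ± 0.16), afb5-5 after picloram (10.71 ± 0.08), afb5-5 on control (10.30 ± 0.12) and wild type on control (10.15 ± 0.21; SD, n = 3), and only the ranges of the 2 control groups overlapped. The interval of BRX, -0.87 to 0.82, allows a difference in either direction.

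Compared directly under picloram, ARGOS was the 1 member of 8 called lower in afb5-5 than in wild type, where 0.978% of transcripts were called lower. It differed by -0.93 ± 0.15 (adjusted p = 0.0102), with 10.65 to 10.80 in afb5-5 and 11.47 to 11.78 in wild type. Leaving out picloram replicate 2 of wild type ended the call (adjusted p = 0.0534), as did leaving out replicate 3 (0.0655). LNG1 measured 12.99, 13.29 and 13.17 in afb5-5, against 13.83, 13.60 and 13.93 in wild type, a difference of -0.64 ± 0.16 that was not called (adjusted p = 0.0992). With a variance trend and a robust fit it was called as well (adjusted p = 0.0297). LNG2 and LNG4 were also apart, with differences of -0.25 and -0.37 that were not called, and 8.89% of all transcripts were apart in that direction.

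The level of ARL was compared between the genotypes on both media. After picloram it averaged 11.04 ± 0.09 in afb5-5 and 11.07 ± 0.10 in wild type (SD, n = 3), a difference of -0.03 with an interval of -0.38 to 0.32. On control it measured 10.55, 10.66 and 10.69 in afb5-5, against 10.09, 10.43 and 9.80 in wild type, a difference of 0.53 ± 0.16 (adjusted p = 1) in which the groups did not overlap. It was the only one of the 8 genes whose control groups were apart, and 2.03% of all transcripts were apart in that direction. In that comparison 0 of 8 genes and 0% of the chip passed the limma threshold, with 1 of the 8 and 338 transcripts (0.911%) at an unadjusted p under 0.05. LNG4 and LNG1 differed by 0.40 ± 0.24 and -0.31 ± 0.16 on control, with overlapping groups. The LNG4 difference was 0.067 without control replicate 1 of wild type, 0.61 without control replicate 2 of wild type and 0.26 without control replicate 3 of afb5-5, and that of LNG1 was -0.19 without control replicate 1 of afb5-5.

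Relatives and known partners of these genes were followed as lists. Of the 4 BRX-like genes and of the 6 genes for TON1 and PP2A subunits, 0 were called by limma in any of the 9 comparisons, and at 2 h their medians were 0.20 and 0.02 in “a” and 0.11 and 0.20 in wild type in “b”. At an unadjusted p under 0.05, TON1 and PP2A genes numbered 1 in “a” and 0 in “b”, and BRX-like genes 0 and 1, where 25.9% of all transcripts in “a” and 14% in “b” had such a p. The locus AT2G41225, listed beside the ARGOS family, was on the chip of “b” alone and changed by -0.05 there. Of 8 genes of the BRX pathway, 1 was called at 2 h in “a” and none in wild type in “b”. Over all transcripts 11.4% were called in either direction in “a” and 2.17% in “b”. The called gene was the brassinosteroid synthesis gene DWF4, which fell by 0.58 in “a” (adjusted p = 0.0496). OPS, a phloem regulator that acts beside BRX, changed by 1.22 in “a” without a call (adjusted p = 0.064) and by 0.03 in “b”.

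Among 10 genes of ethylene perception and signaling, the pathway that ARGOS proteins dampen, 7 were called higher at 2 h in “a”. RTH, named after its value was seen, was called lower, by 0.57. Over all transcripts 5.53% were called higher and 11.4% in either direction. The median change of the 10 was 1.08 against -0.01 over all transcripts, and 9 of the 10 changes lay above 0. Of the 10, 1 was called higher in wild type in “b”, where 1.71% of all transcripts were called higher. The median there was 0.14 against -0.03, with 6 of the 10 changes above 0. The receptor gene ERS2 was the only listed gene called in both, with 13.81 ± 0.20 after picloram and 10.58 ± 0.14 on control in “a” (a rise of 3.23, adjusted p = 0.000147) and 10.61 ± 0.16 after picloram and 9.36 ± 0.39 on control in “b” (a rise of 1.25, adjusted p = 0.00771). The receptor genes ETR2 and ERS1 rose by 1.93 and 1.48 in “a”, and changed by 0.37 and 0.32 in “b” without a call. ERS2 differed by -0.07 at 30 min, and its response differed between the times by 3.3 (adjusted p = 0.0084).

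Of 15 organ size and growth genes, 1 was called at 2 h in “a” and 3 in wild type in “b”, and 0 in both. Over all transcripts 11.4% were called in either direction in “a” and 2.17% in “b”. KLU, a cytochrome P450 that promotes organ growth, fell by 1.44 in “a” (adjusted p = 0.00512) and changed by -0.27 in “b”. The xyloglucan-modifying enzyme genes XTH17 and TCH4 rose by 1.67 and 1.33 in “b”, and changed by 0.50 and -0.10 in “a”. ROT3, a brassinosteroid synthesis gene of polar leaf elongation, fell by 1.05 in “b” and changed by -0.17 in “a”.

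**Figure D5:**
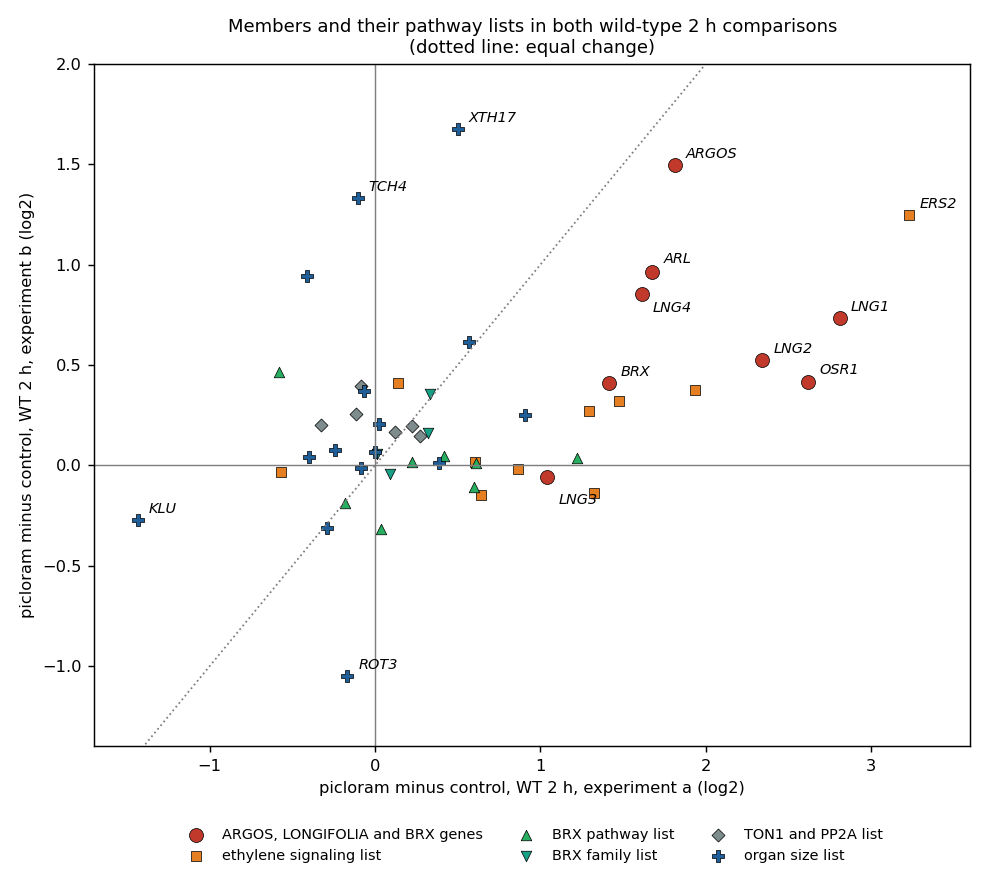
Change (log2, picloram minus control) in wild type at 2 h in experiment a against the same change in experiment b for the 8 genes and the genes of the 5 lists on both chips, with a dotted line of equal change. The 8 genes lie between 1.04 and 2.81 in experiment a and between -0.06 and 1.49 in experiment b, all below the dotted line, and ERS2 lies at 3.23 and 1.25.

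Genes with a pattern like that of ARGOS, LNG1 and BRX were ranked among 30197 loci by the lower of Pearson's r over the 12 samples of “a” and over the 12 of “b”, as a description without a test, since the samples of a group share treatment and library preparation. Nearest to ARGOS were AT5G02760 (0.95 in “a” and 0.96 in “b”), GH3.3 (0.97 and 0.94) and SAUR29 (0.93 and 0.94), a gene of the auxin-induced SAUR family. Nearest to LNG1 were AT3G17090 (0.95 and 0.95), WES1 (0.94 and 0.95), which encodes an auxin-conjugating enzyme, and PAT1 (0.95 and 0.93), a gene of phytochrome A signaling. Nearest to BRX were AT3G59290 (0.88 and 0.87), AT5G56220 (0.86 and 0.93) and AT5G01210 (0.97 and 0.86). Among the 8 genes themselves, LNG1 and LNG2 had r = 0.98 in “a” and 0.81 in “b”.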

How the data were processed

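RNA of dissected hypocotyls was hybridized to 2 NimbleGen expression designs, a 4-plex chip built on TAIR8 (“a”) and a 12-plex chip built on TAIR10 (“b”). The deposited values are linear intensities, 1 per transcript and sample. By their methods, the authors summarized probes by RMA with the oligo package, whose version is not given in the sources used here. The deposited intensities of “a” were not on a common scale between arrays, so their log2 values were quantile normalized, whereas those of “b” were used as log2 of the values as deposited.

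Each experiment was fitted once over its 12 samples with limma 3.58.1 in R 4.3.3, by group and without a replicate block. Experiment “a” used dual-color labelling, and whether a picloram and a control sample shared an array was not modelled. The p-values were adjusted by Benjamini-Hochberg over all 30361 (“a”) or 37118 (“b”) transcripts, with a threshold of 0.05. Intervals are 95%. Replicates are pools, so p-values measure the spread between pools, which may be partly technical, and 3 arrays per group limit the precision. Groups were taken from the sample labels. All 8 genes were to be named whether called or not. From each list, genes called in both wild-type comparisons at 2 h were named, with up to 3 others by size of change. RTH and ROT3 were added after their values were seen. The members and lists were chosen with earlier results of these data known.

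Same-numbered samples deviated together within each time point of “a” (r = 0.34 to 0.60) and in wild type of “b” (r = 0.38 to 0.67) over all transcripts, and not between the times of “a” (r = -0.24 to 0.02). The numbers were therefore taken to pair picloram and control there, as a property of the data. This pairing entered only the alternative fits with a block, and the main estimates and p-values are unpaired. Alternatives changed the normalization, a filter on the dimmest 25% of transcripts, the samples fitted, the variance model, the replicate block and the samples left out. On simulated data, of 67 transcripts changed by 1 on the log2 scale, 34.3% were recovered for the 2 h comparison of “a” and 31.3% for that of wild type in “b”, and of 67 changed by 2, 89.6% in each. For the difference between times 13.4% were recovered at 1 and 47.8% at 2. The simulated noise was independent between samples, without replicate pairing. Fewer transcripts changed in the simulation than were called in the real 2 h fits, 3450 in “a” and 804 in wild type in “b”. The adjusted p depends on how many transcripts change, so these shares do not carry over to the real fits. Sequences were not used here.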

Additional observations from a re-analysis of the deposited data

Results flagged for a closer look

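OSR1 and LNG4 were noted because their picloram response differed between the 2 times in experiment “a” by a test of the difference itself. For OSR1 the response at 2 h minus that at 30 min was 2.09 (limma adjusted p = 0.0277), with changes of 2.62 at 2 h and 0.53 at 30 min. For LNG4 it was 1.68 (limma adjusted p = 0.0277), with changes of 1.61 at 2 h and -0.07 at 30 min. Groups of 3 are too small for a test of single outlying samples.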

How the results depend on the processing

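In “a” at 2 h, ARGOS, OSR1, LNG1, LNG2, LNG4 and BRX were called under every alternative, and leaving out 1 sample gave 6 to 8 calls of 8. The share of all transcripts called higher was then 2.31% to 4.55%, against 5.53% with all samples. At 30 min leaving out 1 sample gave 0 to 1 calls, where 0.102% to 0.181% of transcripts were called higher. In wild type in “b” the count of 3 (1.71% of transcripts called higher) became 1 when the fit held those 2 groups alone (0.983%) and 5 with the replicate block in that fit (7.31%). It was 2 with any 1 sample left out (ARGOS and ARL, with 0.771% to 1.57% of transcripts called higher). In the fit to those 2 groups alone ARL had an adjusted p of 0.0678. Under picloram the count of 1 for afb5-5 against wild type (0.978% called lower) became 2 with a variance trend and robust fit (1.08%), and 0 to 1 without 1 sample (0.361% to 0.711%). For the difference between times the count of 2 (0.415% called higher) became 0 on the values as deposited (0.0494%), 4 with the variance trend and robust fit (1.91%), 1 with the replicate block over all samples (0.211%), and 4 with the block within each time point (2.29%). It was 0 to 2 without 1 sample, where 0.0428% to 0.497% of transcripts were called higher. The replicate block changed the count of calls by over 1.5 times in no other comparison, and the block within time points could not be fitted to the comparison of controls between times. LNG2 was also called for the difference between times with array medians subtracted, where 0.422% of transcripts were called higher, and with the dimmest 25% left out. Apart from these and the fits with 1 sample left out, the counts listed here rose or fell with the share called over the whole chip. The cause was not tested. OSR1 and BRX had the lowest signal ranks in “b”, which limits what can be read from their changes there.

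Small changes turned sign. On the values as deposited LNG3 at 30 min was -0.0306 and the ARGOS difference between times 0.17, which was 0.13 with array medians subtracted. With quantile normalization added in “b”, ARL under picloram was 0.00245 and LNG3 on control -0.00213. Leaving out 1 sample gave, at 30 min, -0.13 to 0.30 for LNG3 and -0.18 to 0.0787 for LNG4, and for LNG3 in wild type in “b” -0.17 to 0.0445. In afb5-5 it gave -0.14 to 0.14 for OSR1 and -0.0221 to 0.23 for LNG4, and for the BRX difference in response -0.30 to 0.13. For afb5-5 against wild type it gave -0.0662 to 0.028 for ARL under picloram, and on control -0.0785 to 0.19 for LNG2, -0.0289 to 0.12 for LNG3 and -0.31 to 0.12 for BRX. Between control times it gave -0.23 to 0.55 for ARGOS, -0.23 to 0.64 for ARL and -0.34 to 0.16 for BRX, and for the ARGOS difference in response between times -0.31 to 0.47. None of these values was called.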
